A study of Mus musculus with 8 samples.

Results

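The matrix metalloproteinases (MMPs), the ADAMTS proteases and their tissue inhibitors, the TIMPs, were followed by gene symbol in bulk RNA-seq of mouse tumors. The symbols Mmp, Adamts and Timp followed by a number picked 45 of the 28918 genes in the expression table, 22 MMPs, 19 ADAMTSs and 4 TIMPs. The tumors were grown under the skin of C57BL/6 mice from B16mhgp100 cells, a melanoma line that carries the gp100 antigen, and the cells over-expressed Colq or carried only the vector. The Colq protein is a collagen-like tail by which acetylcholinesterase attaches to basement membrane. Every mouse, in both groups, was given 4 doses of 200 µg of an antibody to the T cell checkpoint receptor PD-1, starting on day 10 after inoculation, and the tumor was removed the day after the last dose. The Colq group held 3 tumors with 1 library each and the Vector group 3 tumors with 5 libraries, because Vector tumors 1 and 2 were each sequenced as 2 portions. The labels give neither the age of the mice nor whether a cell line was a single clone.

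MMPs and ADAMTS proteases are zinc-dependent enzymes that are made as inactive precursors and cut the matrix around cells. Collagenases, gelatinases and stromelysins are secreted, membrane-type MMPs act at the cell surface, and the ADAMTS group cuts large proteoglycans, trims procollagens or binds fibrillin microfibrils. TIMPs block these enzymes by binding their active site, and TIMP2 also acts with the membrane protease MMP14 to activate the precursor of MMP2. In tumors the enzymes come from tumor cells, fibroblasts, vessels and leukocytes, and bulk RNA does not tell these sources apart.

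Levels are given in TPM, a transcript's share of its library scaled for length. Fold changes are on the log2(TPM + 1) scale, Colq minus Vector, which understates the change of low genes. Portions of a tumor were averaged, so tests set 3 tumors against 3. Means ± SD are over tumors (n = 3 each). A gene was called when limma's Benjamini-Hochberg adjusted p over 13726 tested genes was under 0.05, and every adjusted p below is of that kind. An exact two-sided permutation test over 3 against 3 tumors cannot go below p = 0.1. The transcript of Colq itself measured 4.05, 5.03 and 3.86 TPM in Colq libraries, against 0 to 0.24 TPM in Vector libraries, as labelled. Between 19887 and 21602 genes were above 0 in a library. The Colq libraries lay close together: the median absolute log2 difference over tested genes was 0.106 to 0.111 between Colq tumors, 0.144 to 0.219 between the 2 portions of a Vector tumor, 0.148 to 0.225 between Vector tumors and 0.518 to 0.719 across groups. Whether the Colq tumors were handled apart is not given, and p-values cover only the spread between these samples, which may be technical.

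Several MMP genes lie side by side on chromosome 9, and their promoter windows differed from those of the other members that had a window. In the GRCm38 annotation, a build other than the mm39 of the deposited values, 9 of the 22 MMPs lie between positions 7272514 and 7699585, in the order Mmp13, Mmp12, Mmp1b, Mmp3, Mmp1a, Mmp10, Mmp8, Mmp27 and Mmp7. Promoter windows from RefSeq (GRCm38.p6, 250 bases before to 50 after the start) were found for 31 of the 45 genes. Among the MMPs none was found for Mmp2, Mmp9, Mmp16, Mmp17 and Mmp19, so these were not searched. The windows found were searched on both strands for TGANTCA, the site of the AP-1 factors Fos and Jun, and for TATAAA, the TATA box. Of the 9 cluster genes 7 held the AP-1 letters and 8 held the TATA letters, a gene being counted when any of its windows did. Mmp12 and Mmp7 each had another window that held neither. The TATA letters of Mmp12 lie after the start, at position 5, and those of Mmp8 lie 3 bases before it on the opposite strand. Of the 22 genes elsewhere with a window, ADAMTSs and TIMPs among them, 0 held the AP-1 letters and 2, Adamts1 and Mmp21, held the TATA letters. Over all 32851 mouse windows, counted per window and not per gene, 7.81% held the AP-1 letters, 13.6% the TATA letters and 1.54% both. The cluster windows had a GC content of 37.7% to 52.0%, the windows of the other genes 53.3% to 80%, and the median of all windows was 52.7%. These matches are letters in a window and were not tested as binding sites.

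The 120 bases just before the start are shown for the 4 expressed cluster genes that hold the AP-1 letters, and for Mmp14 and Adamts1, the most abundant MMP and ADAMTS transcripts. They run 5′ to 3′ on the strand of the gene, with AP-1 and TATA letters in capitals.
Mmp12, chr9:7347254-7347373 (plus strand; the second of 2 annotated starts): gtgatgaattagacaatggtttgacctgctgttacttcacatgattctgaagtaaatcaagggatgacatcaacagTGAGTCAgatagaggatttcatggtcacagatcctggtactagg
Mmp3, chr9:7445702-7445821 (plus strand): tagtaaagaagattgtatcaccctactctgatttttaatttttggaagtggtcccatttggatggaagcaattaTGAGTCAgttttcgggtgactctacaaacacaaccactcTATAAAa
Mmp13, chr9:7272394-7272513 (plus strand): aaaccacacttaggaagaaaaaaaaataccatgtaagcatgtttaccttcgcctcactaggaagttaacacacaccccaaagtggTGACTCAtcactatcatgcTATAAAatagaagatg
Mmp10, chr9:7502222-7502341 (plus strand): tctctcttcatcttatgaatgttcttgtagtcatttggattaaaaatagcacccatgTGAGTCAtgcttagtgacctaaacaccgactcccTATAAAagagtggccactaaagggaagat
Mmp14, chr14:54431478-54431597 (plus strand): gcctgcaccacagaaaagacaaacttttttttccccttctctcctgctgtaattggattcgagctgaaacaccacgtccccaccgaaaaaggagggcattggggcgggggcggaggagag
Adamts1, chr16:85803114-85803233 (minus strand): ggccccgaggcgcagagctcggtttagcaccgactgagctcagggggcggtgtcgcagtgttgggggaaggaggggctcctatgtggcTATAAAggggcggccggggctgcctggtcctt
The AP-1 letters begin 44 bases before the start in Mmp12, 46 in Mmp3, 35 in Mmp13 and 63 in Mmp10.

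Colq tumors had more transcript of macrophage elastase, of some other MMPs and of Timp1, and less of the membrane-type Mmp14 and Mmp16, of 4 of the 5 tested proteoglycan-cutting ADAMTSs and, as deposited but not after rescaling, of Timp3. Of the 45 genes 27 reached a mean of 1 TPM over the tumors and were tested. Of these, 7 rose and 13 fell as deposited, where 11.3% of all tested genes were higher and 59.6% lower. After median-of-ratios size factors, which move the median over all genes to -0.014, against -0.50 as deposited (log2 fold change), 8 rose and 7 fell, where 27.3% of all tested genes were higher and 26.8% lower. As deposited the lower share was thus no larger than that of all genes, and after size factors both shares lay near it. By family, 6 of 12 tested MMPs rose and 2 fell (7 and 2 after size factors), while 0 of 12 tested ADAMTSs rose and 9 fell (0 and 5 after size factors, 1 and 4 once the length trend was removed). Mmp27, Adamts6 and Adamts7 averaged under 1 TPM in the group where they were lower and so entered through the other group. Without them 5 of 11 MMPs rose and 2 fell, and 0 of 10 ADAMTSs rose and 7 fell. The 3 Colq tumors lay apart from the 3 Vector tumors for 19 of the 27, against 74.7% of all tested genes, and the 3 Colq libraries from all 5 Vector libraries for 18 of the 27, against 67.3%. When the 3 Colq libraries were averaged and counted as 1 sample, a choice made after the data were seen, 2 rose and 8 fell, where 5.74% and 41.6% of all tested genes did.

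**Figure D1:**
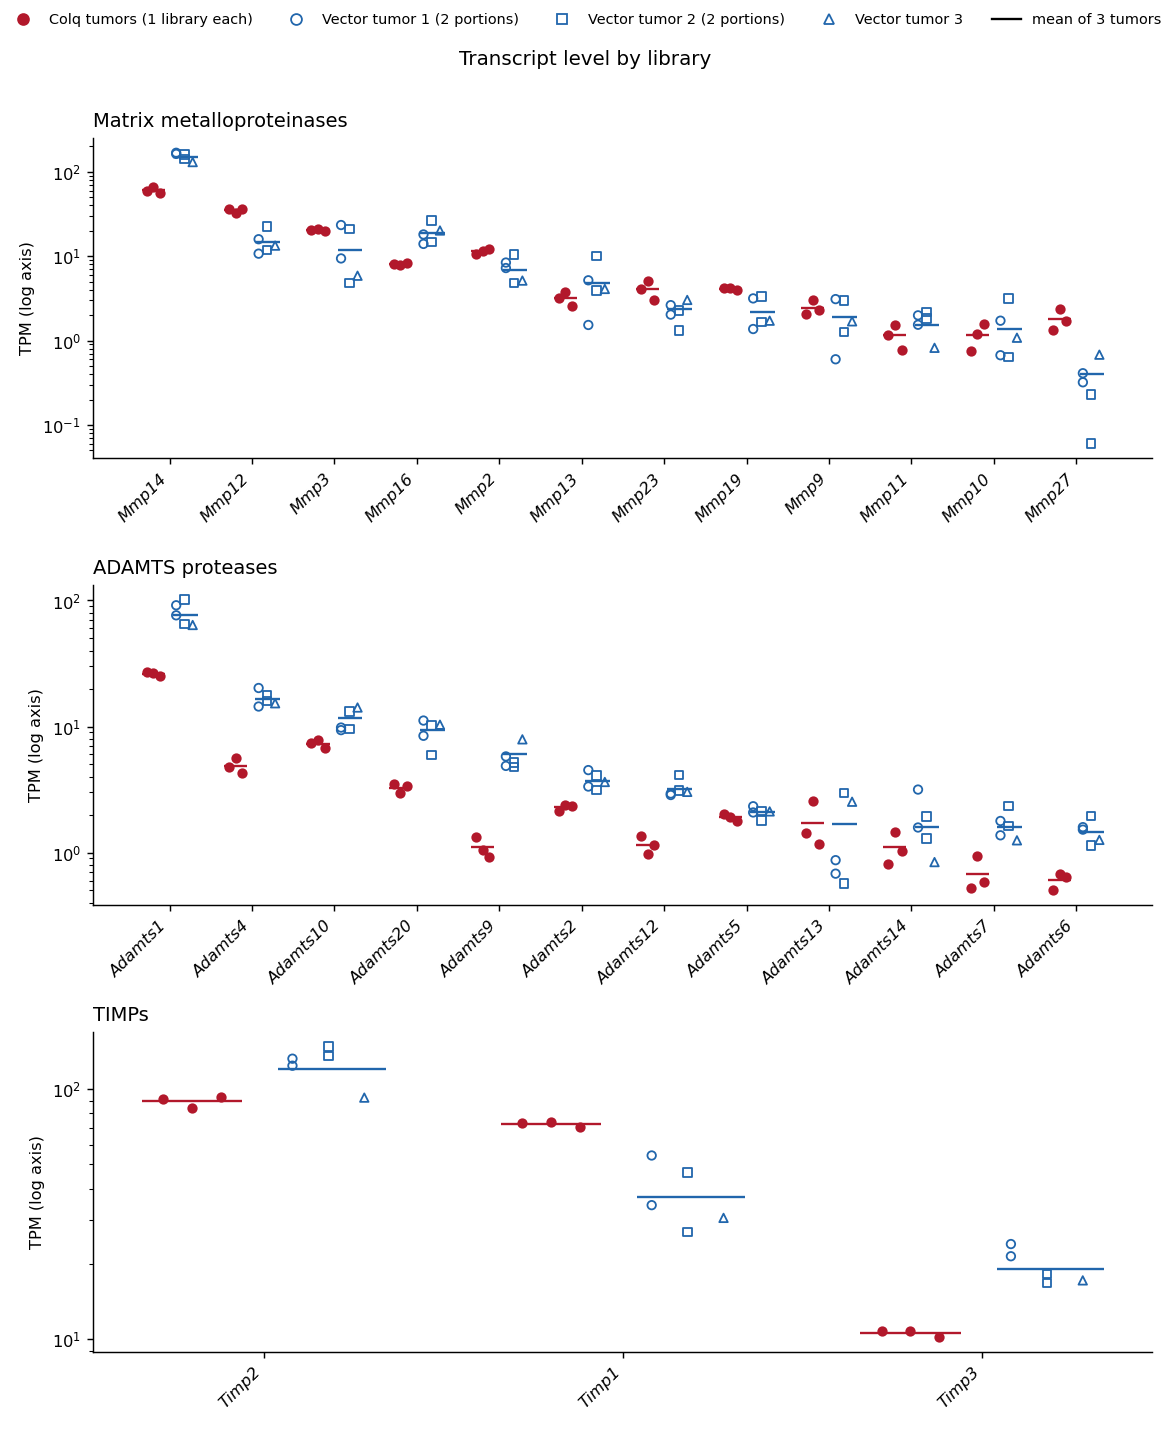
TPM of each tested gene (log axis) in the Colq libraries (filled red, 1 per tumor) and the Vector libraries (open blue, symbol by tumor), with the mean of 3 tumors as a bar. Mmp14 stands at 56.1 to 65.9 TPM in Colq libraries, below every Vector library, while Mmp12 and Timp1 stand above every Vector library.

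The 2 MMPs that fell were membrane-type MMPs. Mmp14, which cuts collagen at the cell surface and activates other MMPs, held 59.0, 65.9 and 56.1 TPM in the Colq libraries. In the Vector libraries it held 168 and 163 TPM in the portions of tumor 1, 142 and 160.1 TPM in those of tumor 2, and 131 TPM in tumor 3. The groups did not overlap, and the means were 60.3 ± 5.03 TPM in Colq tumors, against 149 ± 17.7 TPM in Vector tumors. Its log2 fold change was -1.29 (SE 0.10; adjusted p = 3.8e-05). Mmp16, a close relative, held 8.07, 7.80 and 8.25 TPM in Colq libraries, 18.11 and 13.99 TPM in Vector tumor 1, 14.8 and 26.5 TPM in tumor 2 and 20.2 TPM in tumor 3. It was again lower in each Colq library, with a log2 fold change of -1.11 (SE 0.11; adjusted p = 8.4e-05). Both fell after size factors too, Mmp14 by 0.74 and Mmp16 by 0.60 on the log2 scale. The other members were low. Mmp15 stood at 0.34 to 0.48 TPM in Colq libraries and 0.84 to 2.52 TPM in Vector libraries, under the filter and with no overlap. Mmp17, Mmp24 and Mmp25, the last known from neutrophils, did not exceed 0.88 TPM in any library.

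The gelatinases cut denatured collagen and basement membrane collagen. Mmp2, the gelatinase of fibroblasts and other stromal cells, held 10.7, 11.5 and 12.3 TPM in Colq libraries. It held 8.41 and 7.24 TPM in the portions of Vector tumor 1, 10.49 and 4.82 TPM in those of tumor 2 and 5.14 TPM in tumor 3. The groups did not overlap, though the highest Vector library came close, and the log2 fold change was 0.72 (SE 0.15; adjusted p = 0.0034; 0.079 with first portions). Mmp2 is the substrate of Mmp14, and their ratio was 0.192 ± 0.024 in Colq tumors, against 0.0457 ± 0.0058 in Vector tumors. Mmp9, the gelatinase of neutrophils and macrophages, held 2.06, 3.02 and 2.30 TPM in Colq libraries, 3.10 and 0.60 TPM in Vector tumor 1, 2.99 and 1.26 TPM in tumor 2 and 1.69 TPM in tumor 3. The groups overlapped, and it was not called as deposited (log2 fold change 0.32, adjusted p = 0.11) but was called higher after size factors (0.70, adjusted p = 0.0081).

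The chromosome 9 cluster held genes that rose, Mmp12 among them, and genes that were not called. Mmp12, the elastase of macrophages, held 36.7, 32.6 and 36.2 TPM in Colq libraries. In Vector libraries it held 15.9 and 10.7 TPM in tumor 1, 22.6 and 11.8 TPM in tumor 2 and 13.4 TPM in tumor 3. Every Colq library lay above every Vector library, with a mean 2.41 times as high and a log2 fold change of 1.25 (SE 0.10; adjusted p = 4.4e-05). Mmp3, stromelysin 1, held 20.4, 20.8 and 19.8 TPM in Colq libraries, 23.4 and 9.41 TPM in Vector tumor 1, 21.0 and 4.79 TPM in tumor 2 and 5.87 TPM in tumor 3. Its first portions in Vector tumors reached the Colq level, and its call (0.99, SE 0.27; adjusted p = 0.013) depended on the portion used. With first portions the log2 fold change was 0.47 (adjusted p = 0.40), and with second portions it was 1.52 (adjusted p = 0.00080). Mmp27, a less studied stromelysin-like enzyme, held 1.35, 2.36 and 1.70 TPM in Colq libraries and between 0.06 and 0.68 TPM in the Vector libraries. The groups did not overlap, and its log2 fold change was 1.01 (SE 0.23), but it passed the filter through the Colq group alone, so its adjusted p (0.0050; 0.051 with Colq as 1 sample) is given as a description.

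Mmp13, the main interstitial collagenase of mice, held 3.22, 3.81 and 2.55 TPM in Colq libraries and 1.53 to 10.1 TPM in Vector libraries. The groups overlapped (log2 fold change -0.35, adjusted p = 0.23). Mmp10, stromelysin 2, stood at 0.76 to 1.56 TPM in Colq libraries and 0.64 to 3.14 TPM in Vector libraries (-0.08, adjusted p = 0.75). Of the 4 cluster genes whose AP-1 letters are shown above, Mmp12 and Mmp3 were called and Mmp13 and Mmp10 were not. Mmp8, the neutrophil collagenase, did not exceed 0.63 TPM, Mmp1a and Mmp1b did not exceed 0.07 TPM, and Mmp7, matrilysin, was listed at 0 in all 8 libraries. Together the 9 cluster genes summed to 61.9 ± 0.77 TPM in Colq tumors, against 33.4 ± 7.27 TPM in Vector tumors. The size of this gap depended on the portion. First portions of Vector tumors 1 and 2 summed to 47.2 and 57.7 TPM and second portions to 22.9 and 21.5 TPM. Vector tumor 3 summed to 25.4 TPM and the Colq libraries to between 61.2 and 62.7 TPM.

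**Figure D2:**
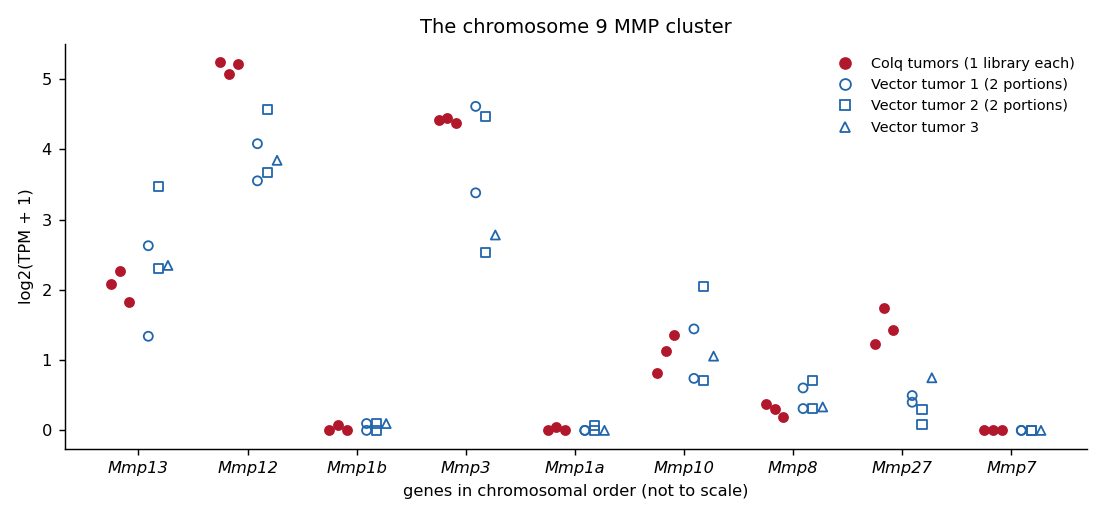
Log2(TPM + 1) of the 9 MMP genes of the chromosome 9 cluster, in chromosomal order and not to distance, with Colq libraries in filled red left of Vector libraries in open blue. Mmp12 is higher in every Colq library, Mmp3 overlaps the first portions of Vector tumors 1 and 2, and Mmp1a, Mmp1b and Mmp7 are at or near 0.

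Of the remaining MMPs, Mmp19, which is found in vessels and macrophages, held 4.22, 4.16 and 3.98 TPM in Colq libraries. It held 3.16 and 1.37 TPM in Vector tumor 1, 3.32 and 1.65 TPM in tumor 2 and 1.72 TPM in tumor 3, below each Colq library. It rose by 0.74 on the log2 scale (SE 0.13; adjusted p = 0.0018). With first portions the difference was 0.49 (adjusted p = 0.067), and with Colq as 1 sample the adjusted p was 0.051. Mmp23, a membrane-anchored MMP without the usual hemopexin domain, held 4.14, 5.05 and 3.06 TPM in Colq libraries and 1.32 to 3.03 TPM in Vector libraries. The groups met at their edge and its call was among the weakest (0.59, SE 0.21; adjusted p = 0.033; 0.058 with first portions). The call did not hold when Colq replicate 1 was left out (adjusted p = 0.087), nor without Colq replicate 2 (0.11), without Vector replicate 1 (0.076) and without Vector replicate 2 (0.10). Mmp11, stromelysin 3, overlapped between groups at 0.77 to 1.54 TPM in Colq libraries and 0.82 to 2.17 TPM in Vector libraries. Mmp21 and Mmp28 did not exceed 0.39 TPM.

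Of the 5 tested ADAMTSs that cut versican and other large proteoglycans, 4 fell and Adamts5 was not called; after size factors the counts were the same, and with the length trend removed 4 fell and 1 rose. Adamts1, also known as an inhibitor of vessel growth, was the most abundant ADAMTS. It held 26.95, 26.8 and 25.2 TPM in Colq libraries, 91.6 and 76.2 TPM in Vector tumor 1, 64.8 and 102 TPM in tumor 2 and 63.9 TPM in tumor 3. The gap between groups was wider than the spread within Vector tumors, at a log2 fold change of -1.49 (SE 0.11; adjusted p = 2.8e-05). Adamts4, an aggrecanase, held 4.74, 5.60 and 4.25 TPM in Colq libraries and 14.4 to 20.2 TPM in Vector libraries (-1.57, SE 0.11; adjusted p = 2.8e-05). Adamts9, which takes part in vessel and pigment cell biology, held 1.33, 1.05 and 0.92 TPM in Colq libraries. In Vector libraries it held 5.79 and 4.87 TPM in tumor 1, 4.76 and 5.17 TPM in tumor 2 and 7.91 TPM in tumor 3. This was the largest fall of the 27 genes, at -1.73 (SE 0.19; adjusted p = 0.00014).

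Adamts20, whose loss in mice causes white belts in the coat through melanoblast survival, held 3.47, 2.97 and 3.39 TPM in Colq libraries and 5.92 to 11.2 TPM in Vector libraries (-1.26, SE 0.13; adjusted p = 0.00011). Adamts1, Adamts4, Adamts9 and Adamts20, with Mmp14 and Mmp16, were called lower in each of the 16 other settings that could test them. Adamts5, the other main aggrecanase, stood apart from these relatives. It held 2.02, 1.93 and 1.79 TPM in Colq libraries and 1.79 to 2.33 TPM in Vector libraries, with no call (-0.09, adjusted p = 0.58). Adamts15 ran the other way, at 1.05, 1.01 and 0.81 TPM in Colq libraries and 0.07 to 0.61 TPM in Vector libraries, without overlap but under the filter. Adamts8 did not exceed 0.19 TPM.

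**Figure D3:**
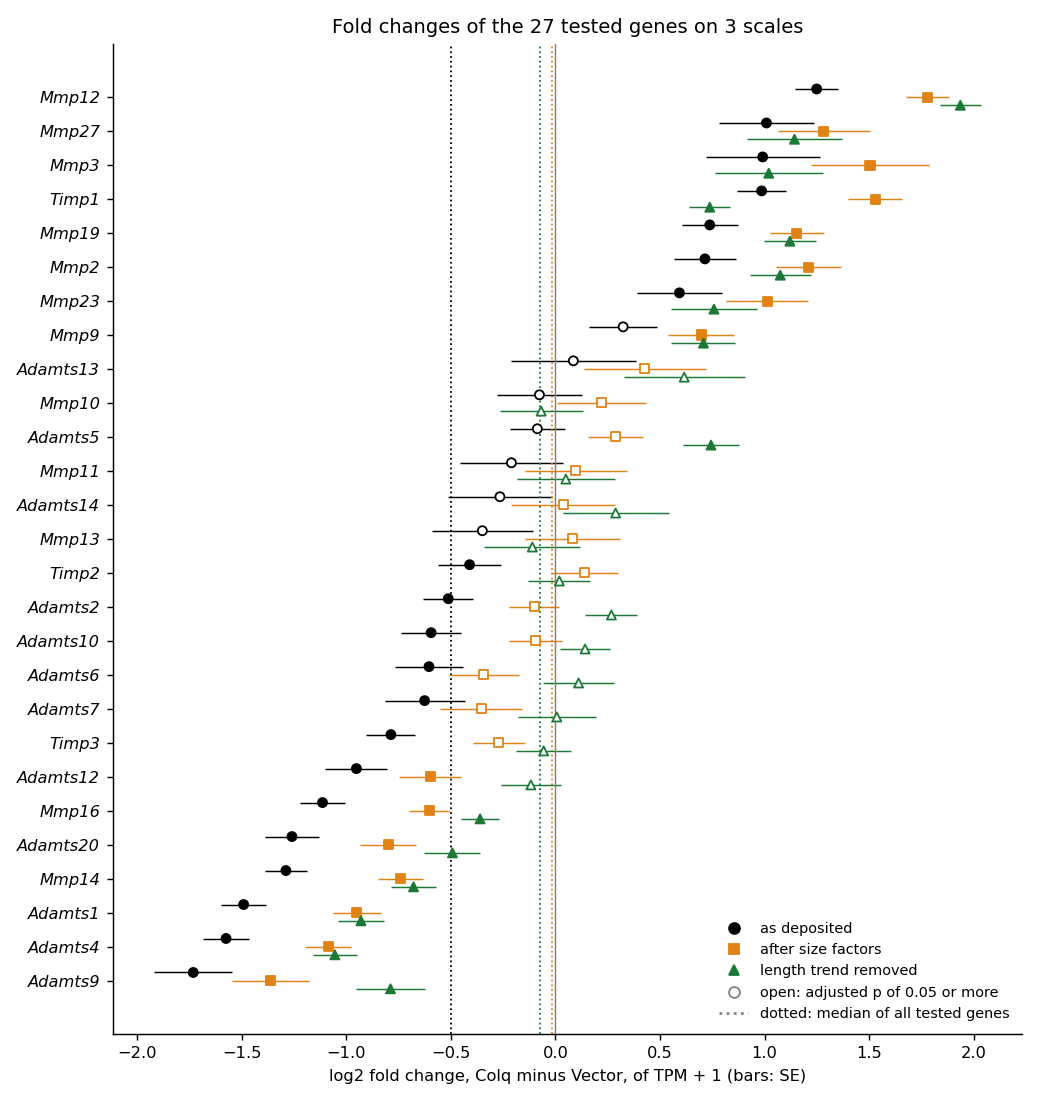
Log2 fold change (Colq minus Vector, of TPM + 1, with SE) of the 27 tested genes on 3 scales: as deposited, after size factors, and once the trend on exonic length was removed. Filled symbols passed adjusted p under 0.05, dotted lines are the median of all tested genes on each scale, and Mmp12 and Adamts9 lie at the ends as deposited.

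Smaller falls were seen in the other ADAMTSs, and these depended on scale. Adamts12, which binds and cuts the cartilage protein COMP, held 1.35, 0.98 and 1.14 TPM in Colq libraries and 2.86 to 4.12 TPM in Vector libraries (-0.95, SE 0.15; adjusted p = 0.00083). Its relative Adamts7 stood at 0.52 to 0.94 TPM in Colq libraries and 1.25 to 2.34 TPM in Vector libraries (-0.62, adjusted p = 0.021, with the limit on its filter given above), a call that did not hold without Colq replicate 1 (adjusted p = 0.056), without Colq replicate 3 (0.059) and without Vector replicate 2 (0.055). Adamts2, a procollagen amino-propeptidase, held 2.14, 2.40 and 2.36 TPM in Colq libraries and 3.15 to 4.51 TPM in Vector libraries (-0.51, adjusted p = 0.0060). Adamts14, of the same activity, overlapped between groups at 0.81 to 1.46 TPM in Colq libraries and 0.84 to 3.16 TPM in Vector libraries. The fibrillin-binding Adamts10 stood at 6.80 to 7.75 TPM in Colq libraries and 9.36 to 14.2 TPM in Vector libraries (-0.59, adjusted p = 0.0068). Adamts6, its paralog, stood at 0.50 to 0.68 TPM in Colq libraries and 1.14 to 1.95 TPM in Vector libraries (-0.60, adjusted p = 0.012). Adamts6 and Adamts7 passed the filter through the Vector group alone. Adamts2, Adamts6, Adamts7 and Adamts10 were not called after size factors, leaving 5 ADAMTSs lower, and 4 were lower with the length trend removed, where Adamts12 lost its call (-0.12, adjusted p = 0.53) and Adamts5 turned to higher (0.74, adjusted p = 0.0036).

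Adamts13, which trims von Willebrand factor, overlapped between groups at 1.17 to 2.56 TPM in Colq libraries and 0.57 to 2.98 TPM in Vector libraries (0.09, adjusted p = 0.81). Adamts17 stood at 0.15 to 0.44 TPM in Colq libraries and at 0.10 to 0.34 TPM in 4 Vector libraries, but at 7.26 TPM in the second portion of Vector tumor 1. Adamts19 stood at 0.08 to 0.11 TPM in Colq libraries and was listed at 0 in every Vector library. Adamts3, Adamts16 and Adamts18 did not exceed 0.17 TPM. Of the 18 genes that missed the filter, those just under it were Mmp15 and Adamts17, at means over the tumors of 0.869 and 0.858 TPM, and Adamts6 was the lowest above it, at 1.03 TPM.

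Timp1 rose on each scale, while Timp2 and Timp3 fell as deposited and were not called after size factors or with the length trend removed. Timp1, an inducible inhibitor, held 73.0, 73.6 and 70.4 TPM in Colq libraries. It held 54.3 and 34.4 TPM in Vector tumor 1, 46.4 and 26.8 TPM in tumor 2 and 30.6 TPM in tumor 3, below each Colq library. The means were 72.3 ± 1.71 TPM in Colq tumors, against 37.2 ± 6.90 TPM in Vector tumors, a log2 fold change of 0.99 (SE 0.12; adjusted p = 0.00023). Timp1 and Mmp12 were called higher in each of the 16 other settings. Timp3, which is held in the matrix and also inhibits ADAMTS4 and ADAM17, held 10.8, 10.8 and 10.2 TPM in Colq libraries, 24.04 and 21.5 TPM in Vector tumor 1, 18.3 and 16.8 TPM in tumor 2 and 17.2 TPM in tumor 3. It fell by 0.79 on the log2 scale as deposited (SE 0.12; adjusted p = 0.00065), without overlap, but was not called after size factors (-0.27, adjusted p = 0.11). The ratio of Timp1 to Timp3, which a common scale cannot change, was 6.83 ± 0.071 in Colq tumors, against 1.94 ± 0.16 in Vector tumors. Timp1 is a short transcript and Timp3 a long one, and with the length trend removed their log2 fold changes lay closer, at 0.74 for Timp1 and -0.06 for Timp3.

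Timp2, the partner of Mmp14 in the activation of Mmp2, held 91.1, 83.7 and 93.2 TPM in Colq libraries. It held 124 and 132 TPM in Vector tumor 1, 136 and 148 TPM in tumor 2 and 92.5 TPM in tumor 3, a value inside the Colq range. Its call as lower (-0.41, SE 0.15; adjusted p = 0.040) was near that of the median gene (-0.50), and it stood at 0.14 after size factors (adjusted p = 0.49). The call was lost without any of the Colq replicates (adjusted p = 0.085, 0.12 and 0.076 without replicates 1, 2 and 3), without Vector replicate 1 (0.13) and without Vector replicate 2 (0.12), and with first portions (0.051). Timp4 did not exceed 0.24 TPM in any library. Timp1 made up 42.0 ± 1.66% of all TIMP TPM in Colq tumors, against 21.0 ± 2.10% in Vector tumors.

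Summed levels show how few genes carry each family. The MMPs summed to 155.1 ± 5.77 TPM in Colq tumors, against 219 ± 24.5 TPM in Vector tumors, of which Mmp14 took 38.9 ± 1.78% in Colq tumors, against 68.2 ± 2.48% in Vector tumors. Without Mmp14 the sums were 94.8 ± 0.78 TPM in Colq tumors, against 69.7 ± 9.64 TPM in Vector tumors. Single libraries overlapped there, at 94.3 to 95.7 TPM in Colq libraries and, among Vector libraries, 87.0 and 96.4 TPM in the first portions against 51.9 and 62.4 TPM in the second. The ADAMTSs summed to 53.7 ± 2.99 TPM in Colq tumors, against 138 ± 9.63 TPM in Vector tumors. The TIMPs summed to 172 ± 3.67 TPM in Colq tumors, against 177 ± 31.9 TPM in Vector tumors, a difference within the spread of the Vector tumors. MMP over TIMP was 0.901 ± 0.052 in Colq tumors, against 1.25 ± 0.098 in Vector tumors. All these sums are as deposited, a scale on which the middle tested gene was itself lower in Colq tumors (median -0.50, log2). Colq over Vector, the mean sums stood at 0.709 for the MMPs, 0.390 for the ADAMTSs and 0.972 for the TIMPs. The MMP fall was thus near that of the middle gene, and the TIMP sums fell less than it. Sums after size factors are not given. The sums were not tested, since the members were chosen with earlier results known.

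**Figure D4:**
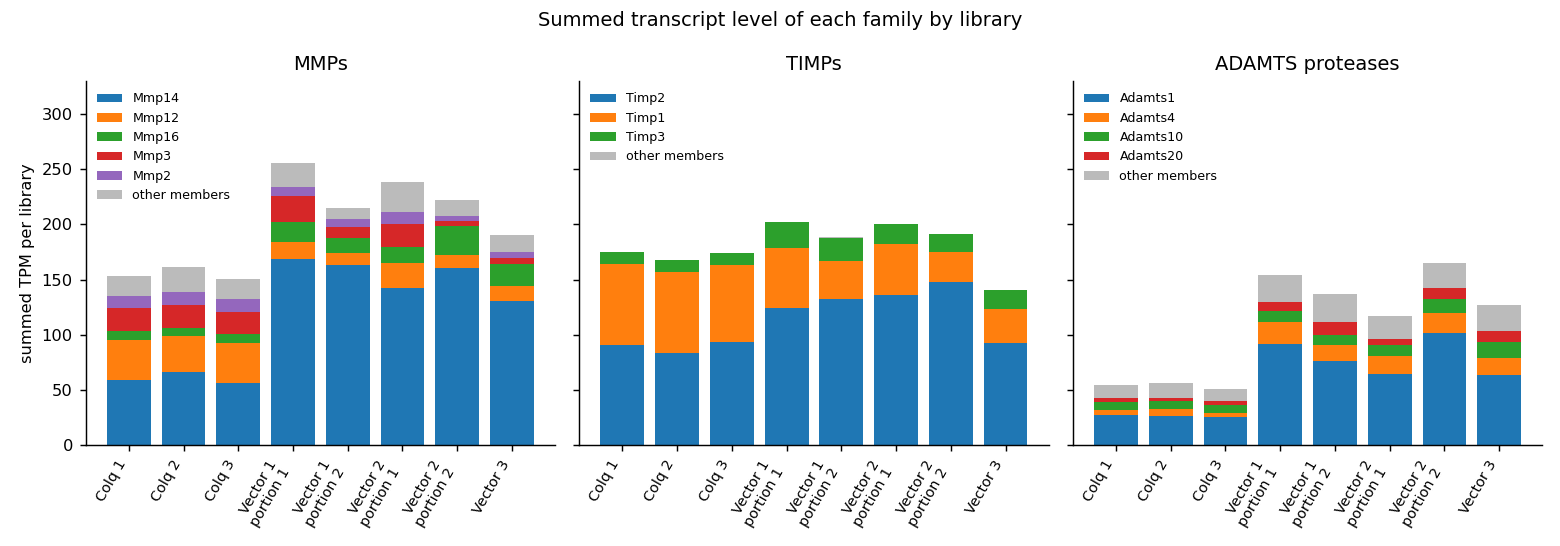
Summed TPM of the MMPs, the TIMPs and the ADAMTSs in each library, with the Colq libraries left of the Vector libraries and the most abundant genes in color. Mmp14 makes up most of the MMP sum in every Vector library and 37.3% to 40.8% of it in the Colq libraries. As deposited the TIMP sums differ little, while Timp1 takes a larger part in Colq libraries.

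Portions of the same Vector tumor differed for several members. In both tumors the first portion held more than the second of 15 of the 27 tested genes and less of 3. How many of all tested genes did so in both tumors was not counted. Mmp3 stood 2.49 times as high in the first portion of tumor 1 and 4.39 times as high in that of tumor 2, and Mmp13 3.39 and 2.55 times as high. Those were the 2 genes whose portions differed by more than 1 on the log2(TPM + 1) scale in both tumors. Mmp10 (2.57 and 4.91 times), Mmp9 (5.17 and 2.37 times), Mmp19 (2.31 and 2.01 times), Mmp12 (1.48 and 1.92 times) and Timp1 (1.58 and 1.73 times) ran the same way. Mmp14 (1.03 and 0.887 times) and Timp2 (0.937 and 0.918 times) differed little, while Mmp16 stood 1.29 times as high in the first portion of tumor 1 and 0.557 times as high in that of tumor 2. The median log2 difference of all tested genes was -0.010 in tumor 1 and -0.110 in tumor 2. With first portions 3 of the 27 genes rose and 12 fell, where 9.82% and 56.1% of all tested genes did. With second portions 8 rose and 13 fell, where 10.8% and 58.3% did.

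**Figure D5:**
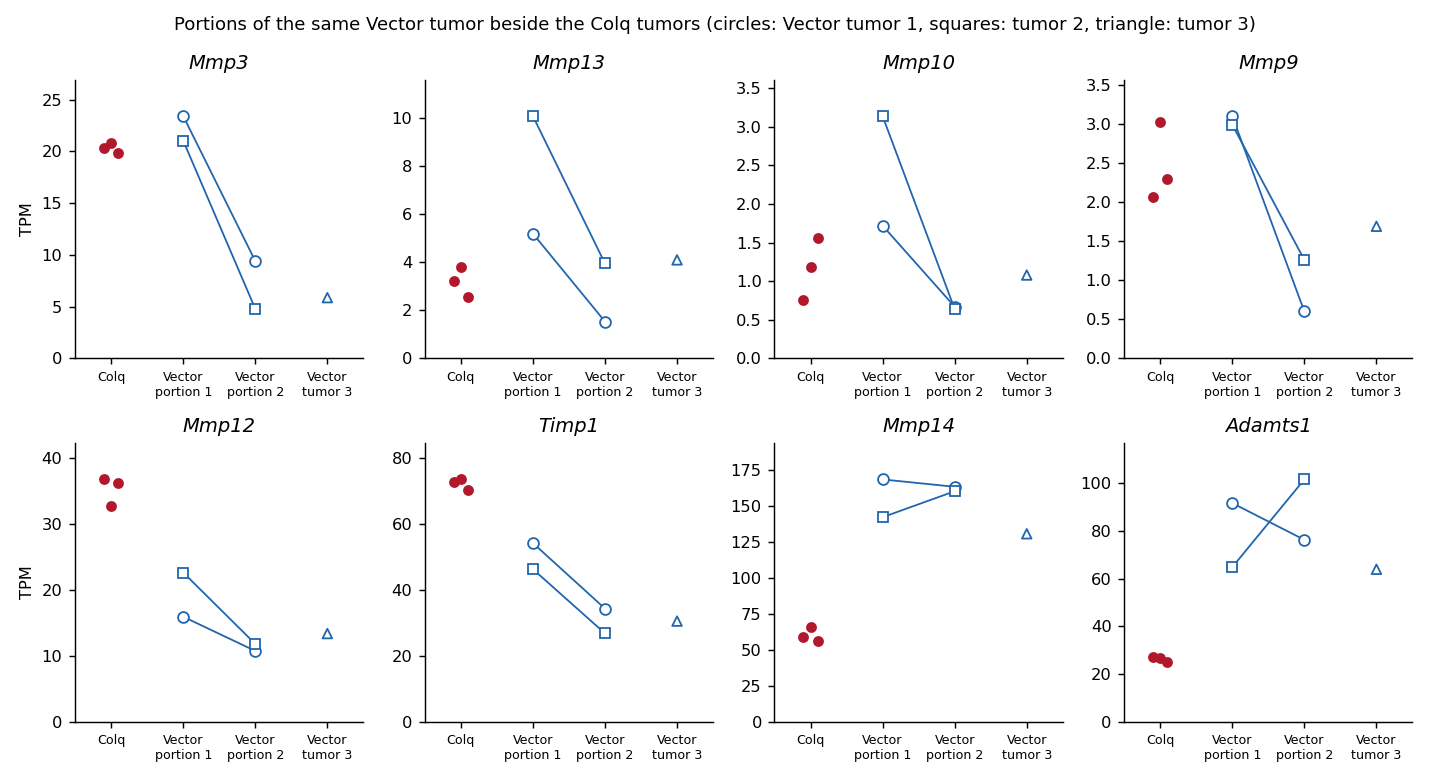
TPM of 8 genes in Colq tumors (filled red) and in Vector portions 1 and 2 (open blue, joined within a tumor) and Vector tumor 3 (triangle). Mmp3, Mmp13, Mmp10, Mmp9, Mmp12 and Timp1 are higher in the first portion of both Vector tumors, and Mmp14 and Adamts1 lie above the Colq tumors in every Vector library.

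Marker genes of the cell types that make these enzymes also differed between the groups, and in bulk tissue fewer cells of a type and less RNA per cell cannot be told apart. The counts are as deposited, where 11.3% of all tested genes were higher and 59.6% lower. Counts in brackets are after size factors, where 27.3% were higher and 26.8% lower. Beside Mmp12, 3 of 10 macrophage markers rose and 1 fell (8 and 0 after size factors). Their summed level was 1574 to 1620 TPM in Colq libraries and 461 to 1139 TPM in Vector libraries. Lyz2 alone held 865 to 873 TPM in Colq libraries and 154 to 296 TPM in Vector libraries. Adgre1, Csf1r, Cd68, C1qa, C1qb and C1qc were not called as deposited. Marco, which rose, averaged 0.782 TPM in Vector tumors and passed the filter through the Colq group alone. Beside Mmp2, Mmp3 and Timp1, 6 of 10 fibroblast markers rose and 2 fell (7 and 2 after size factors), with sums of 276 to 297 TPM in Colq libraries and 119.8 to 230.0 TPM in Vector libraries. Beside the ADAMTSs, 0 of 9 tested endothelial markers rose and 7 fell (0 and 6 after size factors), with sums of 53.2 to 57.0 TPM in Colq libraries and 112 to 155 TPM in Vector libraries. Of 10 pericyte and smooth muscle markers 1 rose and 7 fell (1 and 5 after size factors). Their sums were 46.6 to 52.1 TPM in Colq libraries and 67.7 to 80.7 TPM in Vector libraries. Among those that fell, Cspg4 (0.463 TPM in Colq tumors), Myh11 (0.703), Notch3 (0.917) and Abcc9 (0.547) passed the filter through the Vector group alone. Of 10 melanocyte markers 0 rose and 8 fell (2 and 6 after size factors, where Tyr turned from -0.19 to 0.36 and Mlana was called higher). Beside Mmp8, Mmp9 and Mmp25, 1 of 4 tested neutrophil markers rose and 0 fell (2 and 0 after size factors). The 1 that rose as deposited, Retnlg, averaged 0.455 TPM in Vector tumors and passed the filter through the Colq group alone. The neutrophil sums were 19.8 to 22.7 TPM in Colq libraries and 1.86 to 117 TPM in Vector libraries, the highest in the first portion of Vector tumor 1. The neutrophil precursor gene Elane was at 0 in every Colq library and Mpo and Camp were at 0 in every Vector library, while no gene of any marker list was at 0 in all 8. T cell markers rose in 4 of 8 and fell in 0 (5 and 0 after size factors). Adipocyte markers rose in 1 of 4 and fell in 0 (3 and 0). Skin markers rose in 4 of 9 and fell in 2 (4 and 0), and these counts depended on the portion. With first portions 1 skin marker rose and 2 fell, and with second portions 7 rose and 1 fell. The skin sums overlapped, at 106.2 to 111.5 TPM in Colq libraries and 84.57 to 405.3 TPM in Vector libraries, the highest in the first portion of Vector tumor 1. Among the skin markers that rose, Krt15 averaged 0.292 TPM in Vector tumors and passed the filter through the Colq group alone. Skeletal muscle markers rose in 12 of 12, as they did after size factors, with sums of 1009 to 1026 TPM in Colq libraries and 36.2 to 188 TPM in Vector libraries. Of these, Myoz1 averaged 0.557 TPM in Vector tumors and passed the filter through the Colq group alone. The part of these cell types in the results was not tested.

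Transcript length moved with the fold changes too. Among tested genes with less than 2000 exonic bases the median log2 fold change was 0.06, and the 3 members there, Mmp3, Mmp10 and Timp1, had 2 rises and 0 falls. Among those of 8000 or more the median was -0.883. The 8 members there, which include Adamts9, Adamts20, Mmp16 and Timp3, had 0 rises and 7 falls. Their median of -0.869 was near that of all genes of their length. The share of all genes called within each length class was not counted. Between 2000 and 4000 bases the median was -0.375. The 8 members there had a median of 0.459, with 4 rises and 1 fall. That median lay above the one of all genes of their length, though Timp2 (-0.41) lay below both. Between 4000 and 8000 bases the median was -0.644, and the 8 members there had a median of -0.614, with 1 rise and 5 falls. Of these, Adamts1, Adamts4 and Mmp14 lay well below the median of their length and Mmp12 well above it. With the trend on length removed, 9 of the 27 genes rose and 6 fell, where 20.4% and 28.2% of all tested genes did. The 6 were Adamts1 (-0.93), Adamts4 (-1.05), Adamts9 (-0.79), Adamts20 (-0.49), Mmp14 (-0.68) and Mmp16 (-0.36). Each of the 7 genes called higher as deposited was called higher on this scale and after size factors.

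Other genes of the same pathways were taken from fixed lists. Their counts are as deposited, where 11.3% of all tested genes were higher and 59.6% lower. Counts in brackets are after size factors, where 27.3% were higher and 26.8% lower. Among the ADAMTS-like proteins, which share the ADAMTS matrix-binding modules but lack the protease, 0 of 5 tested rose and 2 fell (1 and 2). The 2 that fell were Papln (-2.30, adjusted p = 4.5e-05) and Adamtsl4 (-0.91, adjusted p = 0.00070). Of 9 tested ADAM proteases 0 rose and 6 fell (2 and 4). The falls were led by the sheddases Adam9 (-1.45), Adam17 (-1.22) and Adam10 (-0.96) and by Adam12 (-1.90). Adam9 held 38.2 ± 1.39 TPM in Colq tumors, against 106 ± 11.2 TPM in Vector tumors. In the plasminogen system, whose product plasmin activates several MMP precursors, 1 of 7 rose and 2 fell (3 and 0). Serpinb2, an inhibitor of urokinase, rose by 3.35 on the log2 scale (SE 0.48; adjusted p = 0.00051), at 25.96 ± 1.57 TPM in Colq tumors, against 2.60 ± 2.30 TPM in Vector tumors. Plat (-0.57) and Serpine2 (-0.45, adjusted p = 0.031) fell as deposited and were not called after size factors.

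Among 8 tested MMP regulators and binding partners 1 rose and 7 fell (2 and 3 after size factors). The fallen included Cd44, a surface anchor of Mmp9 and Mmp14 (-1.23), Itgav (-1.25), Itgb3 (-0.96) and the precursor-activating protease Furin (-0.80, not called after size factors). Of 9 matrix-degrading cathepsins and cystatins 3 rose and 2 fell (7 and 0 after size factors). Ctsh (1.07) and the cystatin Cstb (0.85) rose, Ctsz fell (-0.63), and Ctsd fell as deposited (-0.35, adjusted p = 0.00034) but was higher after size factors (0.20, adjusted p = 0.010). Of 16 tested matrix substrates 1 rose and 12 fell (1 and 9 after size factors). The basement membrane genes Col4a1 (-2.34), Col4a2 (-2.23), Hspg2 (-1.91) and Lamc1 (-1.57) had the smallest p of these. The aggrecanase substrates Acan, Bcan and Ncan were under the filter, and Vcan, encoding versican, was not called as deposited (-0.15, adjusted p = 0.59) but was higher with the length trend removed (0.78, adjusted p = 0.021). The counts as deposited stand against the 11.3% higher and 59.6% lower of all tested genes. Those after size factors stand against 27.3% higher and 26.8% lower.

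In the authors' deposited table, oriented so that Colq itself is higher, 9 of the 27 genes were higher and 8 lower at an adjusted p under 0.05, where 20.4% and 20.9% of the 18615 genes with an adjusted p were. In the authors' deposited table Mmp12 stood at a log2 fold change of 1.81, Timp1 at 1.501, Mmp2 at 1.29 and Mmp14 at -0.76. The authors' deposited table gave Adamts9 at -1.93, Adamts4 at -1.22 and Adamts1 at -1.003, and Timp2 at 0.11 (adjusted p = 0.59). Adamts5 and Mmp9, not called here as deposited, were higher in that table, at 0.41 (adjusted p = 0.016) and 0.94 (adjusted p = 0.0032). Of genes under the filter used here, Adamts15 stood in the authors' deposited table at 2.32 (adjusted p = 3.1e-09) and Mmp15 at -1.09 (adjusted p = 0.016). Adamts19 stood there at 5.30 (adjusted p = 0.0048) and Mmp25 at 0.99 (adjusted p = 0.042).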

How the data were processed

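Per the labels' protocols, the poly-A libraries do not keep the strand, so overlapping antisense genes cannot be separated. The authors deposited log2(TPM + 1), as judged from the values. Per the submitters' processing notes the authors used RSEM and build mm39; an aligner, versions and an annotation were not given in the sources used here. Depth is unknown, since TPM does not keep it. The authors used DESeq2 for their deposited table, per the submitters' processing notes, and it holds a mean normalized signal, log2 fold changes and p-values; which libraries entered it is not given. Its IDs were matched to symbols for 26581 of 27664.

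Groups and replicates came from the sample titles. Portions were averaged on the log2 scale for tests, and as TPM for means, sums and the filter. Genes averaging 1 TPM or more were tested with limma 3.58.1 in R 4.3.3 (eBayes with trend), which was tested on simulated data. Replicate numbers are not tied to animals across groups. The members and lists were chosen with earlier results of these data known. Named genes were the called members whose tumors did not overlap, Timp1 to Timp4, Mmp2, Mmp9 and Mmp14, and up to 4 called genes per related list by smallest p; the other members are given more briefly, and examples named beside them were chosen after their values were seen. Alternatives were a pseudocount of 0.1, no filter or a minimum mean of 5 TPM, size factors, a loess (span 0.5) removal of the trend on exonic length (all annotated exons, GENCODE M21 on GRCm38, 96.3% of tested genes), other treatments of portions, a replicate block, and leaving out each tumor; averaging the Colq libraries as 1 sample was added after the data were seen. Tables and figures used Python 3.11.15, numpy 2.4.6, pandas 2.3.3 and matplotlib 3.10.9. Receptor measures deposited with the series were not used.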

Additional observations from a re-analysis of the deposited data

Results flagged for a closer look

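Each gene that reached 1 TPM in a library was checked for a Vector library far from the other 4, as a gap divided by the range on the log2(TPM + 1) scale; of 30 genes 2 passed the critical value of 0.71 for 5 values, where chance flags about 1 in 20, and portions of a tumor are not independent. Adamts17 passed with 0.902: the second portion of Vector tumor 1 held 7.26 TPM and the other Vector libraries 0.10 to 0.34 TPM. Adamts12 passed with 0.786: the second portion of Vector tumor 2 held 4.12 TPM and the other Vector libraries 2.86 to 3.10 TPM, all above the Colq libraries.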

How the results depend on the processing

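Over 16 other settings the members called higher numbered 7 as deposited, 4 under the stricter filter (mean TPM of 5), 3 with first portions and 2 with the Colq libraries as 1 sample. The members called lower numbered 13 as deposited, 8 under the stricter filter, 7 after size factors, 6 once the length trend was removed and 8 when Colq counted as 1 sample. The stricter filter tested fewer genes, and the fit with 1 Colq sample had fewer samples, which is taken to spread as Vector tumors do; the causes of the other moves were not tested. Leaving out single tumors gave 6 to 7 higher and 11 to 13 lower members. Over all genes 1556 were higher and 8181 lower as deposited. Size factors gave 3742 higher and 3675 lower genes, removal of the length trend 2690 and 3722, and treating Colq as a single sample 788 higher. Leaving out single tumors gave 1310 to 1549 higher and 7484 to 8216 lower genes.

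With the length trend removed the log2 fold change changed sign for Adamts2 (0.27), Adamts5 (0.74), Adamts6 (0.11), Adamts7 (0.007), Adamts10 (0.14), Timp2 (0.019), Plat (0.063) and Serpine2 (0.29), and after size factors for Timp2 (0.14) and Ctsd (0.20). Among members called on neither scale compared, the sign also turned after size factors for Adamts5 (0.29), Adamts14 (0.04), Mmp10 (0.22), Mmp11 (0.10) and Mmp13 (0.08), and with the length trend removed for Adamts14 (0.29) and Mmp11 (0.05). Vcan turned to 0.78 with the length trend removed. Mmp9, Mmp10, Mmp13 and Adamts13, not called as deposited, turned in portion or leave-one-out settings without a call there. The cause was not tested. With the replicate number as a block 6 members were higher and 12 lower, with 1526 genes higher and 7928 lower; same-numbered tumors of the groups had deviations correlated at 0.03, 0.01 and 0.04, so the numbers do not pair them. Depth could not be judged from TPM, and genes near 1 TPM carry the widest relative errors.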
